A study of Triticum dicoccoides with 12 samples.

Results

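The report concerns 66 probe sets, of 61115 on the array that are not controls, whose transcripts gave a clear signal in well-watered roots and no signal above background in water-stressed roots of both genotypes of wild emmer wheat studied. Each probe set combines several short probes designed against a transcript, and in some probe sets the probes also match other transcripts. The 66 were chosen from the measured values themselves: the mean of the 3 well-watered arrays had to be at or above 1.0 in Y12-3 and in A24-39, and the mean of the 3 stressed arrays had to be under -0.15 in both. Of the 6157 probe sets that met the well-watered minimum in both genotypes, these 66 also met the stressed maximum. The change with stress is therefore a condition of the choice. It is described below without a test, and nothing is read from its size or direction.

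Root RNA of the species (Triticum turgidum subsp. dicoccoides), a wild tetraploid relative of durum wheat, was hybridised to the Affymetrix wheat array, whose probes were designed from wheat transcript sequences. The groups were water-stressed Y12-3, well-watered Y12-3, water-stressed A24-39 and well-watered A24-39, each with 3 arrays labelled as biological replicates. Stressed plants had gone 7 days without water from the 4-leaf stage in a greenhouse, all plants were 4 weeks old, and the labels name no transgene or mutation in either genotype. Y12-3 is known as the more drought-tolerant of the pair and A24-39 as the more sensitive. It is not stated whether each array was made from 1 plant or from a pool, nor whether the replicate number marks a shared day or tray, so p-values measure the spread between these arrays. In whole roots, fewer cells of a type and less RNA per cell cannot be told apart.

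When soil dries, roots take up less water and change their growth, and transcripts of many growth, transport and metabolic genes fall while those of protective proteins rise. A transcript that falls below what an array can detect may still be present at a low level, so "at background" describes the signal and not the absence of the RNA. Values are given in the units of the deposited table, a log-like scale of unstated base on which each array averages about 0. The background level came from 23 array controls that match no wheat transcript (non-target controls), whose highest mean over the 12 arrays was -0.152. A difference into a group at or under that level is a lower bound on the change. A level depends on the probes, so the levels of different probe sets are listed but not compared as amounts of RNA.

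Few of the 66 have a gene name. The array annotation used here gave exactly 1 gene symbol to 2 of them, several to 0 and none to 64, against 1273 named probe sets of all 61115. Both symbols, LOC543085 and LOC778415, are placeholders without a description, so no function is given for them. The other members are given by their probe set identifier, whose leading number marks the transcript cluster from which the probes were designed. The 66 came from 55 such clusters, and 19 of them lay in 8 clusters with more than 1 member. Members of 1 cluster can report the same transcript and are not independent of each other.

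LOC543085 (Ta.5610.1.S1_at) had values of -0.13, -0.39 and -0.38 on the stressed Y12-3 arrays, against 3.02, 2.91 and 2.52 on the well-watered ones. In A24-39 it had -0.52, -0.11 and -0.41 on the stressed arrays, against 2.502, 2.68 and 2.69 on the well-watered arrays. The stressed and well-watered arrays lay far apart in both genotypes, and the well-watered arrays of the genotypes overlapped. Its fall was at least 3.12 units in Y12-3 and 2.97 units in A24-39. If no scaling followed the logarithm, 3.12 units are a ratio of at least 22.6 on a natural and 8.69 on a log2 scale, and 2.97 units are 19.5 and 7.83. It is the single probe set of its symbol on the array.

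LOC778415 (Ta.21124.1.S1_x_at) had a wider spread over the well-watered arrays. It had -0.29, -0.24 and -0.25 on the stressed Y12-3 arrays, against 1.67, 2.11 and 1.36 on the well-watered ones. In A24-39 it had -0.32, -0.21 and -0.22 on the stressed arrays, against 1.35, 1.97 and 0.35 on the well-watered arrays. The third well-watered array was the lowest in both genotypes, and in A24-39 it lay under the minimum of 1.0 that the group mean had to reach. The suffix _x_at marks a probe set in which some probes also match other transcripts, so part of this signal may belong to another gene. Neither of the other 2 probe sets of LOC778415 was above background in any group mean. Ta.21124.2.S1_x_at had means of -0.59 under stress and -0.26 with water in Y12-3, and of -0.54 and -0.36 in A24-39. Ta.21124.2.S1_at had -0.41 and -0.42 in Y12-3, and -0.43 and -0.39 in A24-39.

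**Figure D1:**
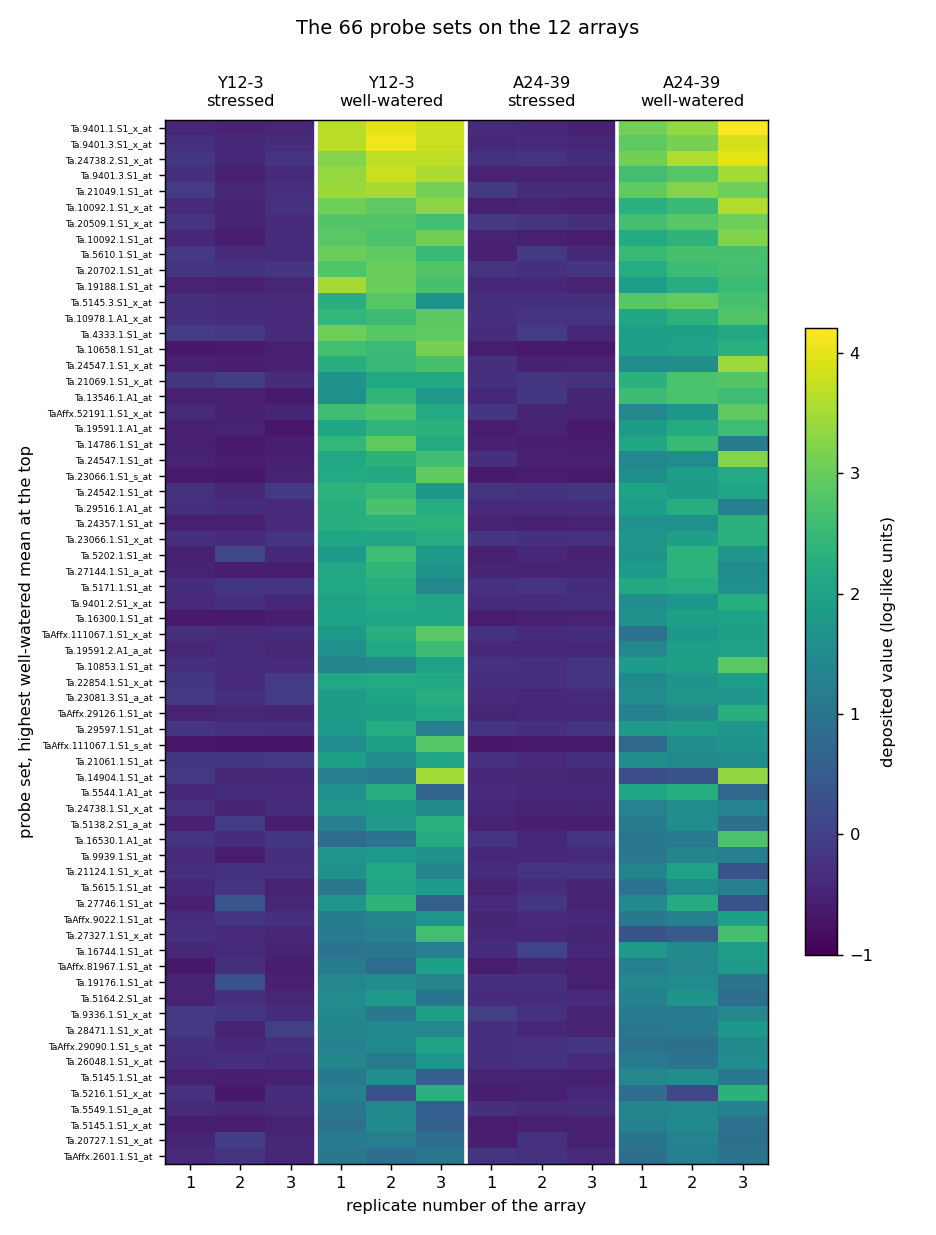
Deposited value of each of the 66 probe sets (rows, ordered by well-watered mean) on each of the 12 arrays (columns, replicate number below), in log-like units by colour. The stressed columns are dark throughout, apart from a few cells of the second stressed Y12-3 array, and the well-watered columns differ in brightness between replicates of a group.

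Among the highest well-watered levels were those of cluster Ta.9401, with 4 of its 5 probe sets among the 66. Ta.9401.1.S1_x_at had -0.39, -0.48 and -0.44 on the stressed Y12-3 arrays, against 3.65, 4.00 and 3.79 on the well-watered ones. In A24-39 it had -0.39, -0.41 and -0.52 on the stressed arrays, against 3.10, 3.36 and 4.17 on the well-watered arrays. It fell by at least 4.25 units in Y12-3 and 3.98 units in A24-39. The third well-watered A24-39 array was the highest of its group for all 4 of these probe sets.

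The remaining members of that cluster followed the same pattern at other levels. In Y12-3, Ta.9401.3.S1_x_at averaged -0.34 ± 0.07 under stress and 3.84 ± 0.22 with water (SD, n = 3 each). In A24-39 its averages were -0.40 ± 0.01 under stress and 3.31 ± 0.50 with water (SD, n = 3 each). Ta.9401.3.S1_at averaged -0.40 ± 0.11 and 3.57 ± 0.21 in the stressed and well-watered Y12-3 groups, and Ta.9401.2.S1_x_at -0.35 ± 0.06 and 2.08 ± 0.09 (SD, n = 3 each). The last probe set of the cluster, Ta.9401.1.S1_a_at, missed the stressed maximum. Its Y12-3 means were -0.05 under stress and 4.60 with water, and its A24-39 means -0.12 under stress and 4.33 with water.

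Ta.24738.2.S1_x_at, Ta.21049.1.S1_at and Ta.10092.1.S1_x_at completed the 6 highest well-watered means. Ta.24738.2.S1_x_at had -0.17, -0.40 and -0.22 in stressed Y12-3, against 3.24, 3.70 and 3.68 in well-watered Y12-3. Its A24-39 values were close to these, with -0.23, -0.20 and -0.32 in stressed and 3.10, 3.59 and 3.98 in well-watered roots. For Ta.21049.1.S1_at the falls were at least 3.62 units in Y12-3 and 3.34 units in A24-39, and for Ta.10092.1.S1_x_at they were at least 3.44 and 3.33 units.

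Cluster Ta.5145 had 3 of its 6 probe sets among the 66, at lower levels. Ta.5145.3.S1_x_at had -0.31, -0.36 and -0.38 in stressed Y12-3, against 2.25, 2.82 and 1.68 in well-watered Y12-3. The A24-39 values were -0.31, -0.29 and -0.27 under stress, against 2.84, 2.95 and 2.68 with water. Ta.5145.1.S1_at and Ta.5145.1.S1_x_at had well-watered values of 0.60 to 1.58 and 0.60 to 1.49 in Y12-3. In all 3 of these probe sets the third well-watered Y12-3 array was the lowest of its group and the second the highest.

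Over all 66, the stressed group means ran from -0.67 to -0.16 in Y12-3 (median -0.35) and from -0.63 to -0.21 in A24-39 (median -0.39). The well-watered means ran from 1.001 to 3.84 in Y12-3 (median 2.05) and from 1.05 to 3.56 in A24-39 (median 1.81). The well-watered medians stood at percentile 96.2 of all probe sets in Y12-3 and 95.0 in A24-39. Both well-watered means were at least 2 in 19 members and at least 3 in 4, while in 13 both were under 1.5. The falls were 1.34 to 4.25 units in Y12-3 (median 2.37) and 1.33 to 3.98 units in A24-39 (median 2.17), all lower bounds. Among the 6157 probe sets at or above the well-watered minimum, not chosen on their stressed means, the median difference was -0.04 in each genotype. This contrast and the percentiles follow in large part from the rule and are given for scale only.

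The limits cut through a continuous range. Just inside the well-watered minimum were TaAffx.2601.1.S1_at, with a lower well-watered mean of 1.001, and Ta.5145.1.S1_x_at, with 1.014. Just outside were Ta.13922.1.S1_at with 0.998 and Ta.27455.1.S1_at with 0.996. At the stressed maximum, Ta.21061.1.S1_at (-0.159) and Ta.23081.3.S1_a_at (-0.167) were inside by their higher stressed mean, and Ta.5232.2.S1_a_at (-0.15) and Ta.20421.1.S1_at (-0.143) were outside.

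The 4 lowest stressed levels, averaged over the genotypes, were those of TaAffx.111067.1.S1_s_at (-0.65), Ta.23066.1.S1_s_at (-0.60), Ta.10658.1.S1_at (-0.60) and Ta.16300.1.S1_at (-0.57). Ta.10658.1.S1_at had -0.64, -0.62 and -0.53 in stressed Y12-3 and -0.59, -0.62 and -0.62 in stressed A24-39. On single arrays, 43 of the 66 stayed at or under the brightest non-target control of the same array on all 6 stressed arrays. Of the 396 stressed values, 34 were above it. The highest of these was on the second stressed Y12-3 array, where Ta.27746.1.S1_at had 0.40, against -0.53 and -0.45 on the other arrays of that group. Ta.19176.1.S1_at (0.30) and Ta.5202.1.S1_at (0.10) were also raised on that array, while their other stressed Y12-3 values lay between -0.52 and -0.40. These 3 were named after their values were seen.

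**Figure D2:**
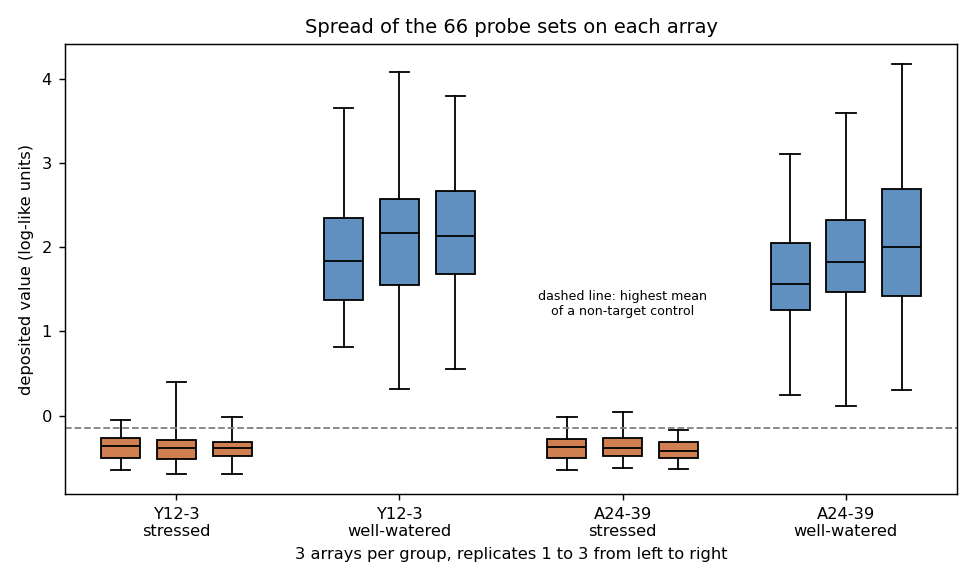
Box plots of the 66 probe sets on each array, in log-like units, with the box at the quartiles, the line at the median and the whiskers at the lowest and highest value, and the dashed line at the background level set by the non-target controls. The stressed medians lie between -0.42 and -0.36 and the well-watered medians between 1.56 and 2.17, lowest on the first array of each well-watered group.

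The well-watered arrays of a group lay further apart for the 66 than for the probe sets at or above the well-watered minimum, a description with no test. The median SD over the 3 well-watered arrays was 0.29 for the 66 in Y12-3 and 0.32 in A24-39. Over the 6157 probe sets at or above the well-watered minimum it was 0.14 in Y12-3 and 0.15 in A24-39. These 6157 were not matched to the 66 on level. Whether plants, days or arrays differed was not tested. Of the 66, 21 had at least 1 well-watered array under 1.0. The median over the members was 1.83, 2.17 and 2.14 on the well-watered Y12-3 arrays and 1.56, 1.82 and 2.001 on the well-watered A24-39 arrays. For the wider set of 6157 these medians were 1.80, 1.78 and 1.76 in Y12-3 and 1.84, 1.84 and 1.71 in A24-39, so the low median on the first array of each genotype was seen in the members and not in that set.

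This variation followed the replicate number in both genotypes. In 48 of the 66 (72.7%) the highest well-watered array had the same number in Y12-3 and A24-39, against 41.1% of the 6157 probe sets at or above the well-watered minimum. The lowest array had the same number in 45 (68.2%), against 42.3%. The deviations of an array from its group mean correlated over the 66 at r = 0.59, 0.75 and 0.74 between arrays of the same number. Between arrays of different number r ran from -0.72 to 0.55. These correlations are over members that share the arrays and in part a transcript, and are a description.

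The shared variation had opposite signs in different members. The third array was the highest of both well-watered groups in 27 of the 66 and the lowest of both in 16. An SD over 0.5 in both well-watered groups, a limit set after the values were seen, was found in 8 members. Of these, TaAffx.111067.1.S1_x_at, TaAffx.111067.1.S1_s_at, Ta.14904.1.S1_at, Ta.16530.1.A1_at, Ta.27327.1.S1_x_at and Ta.5216.1.S1_x_at were highest on the third array in both genotypes. Ta.5544.1.A1_at and Ta.27746.1.S1_at were lowest there.

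Ta.14904.1.S1_at was the most variable. It had 1.23, 1.16 and 3.47 on the well-watered Y12-3 arrays and 0.25, 0.32 and 3.35 on the well-watered A24-39 arrays. In both genotypes a single array carried most of its well-watered mean. Its stressed values were -0.13, -0.43 and -0.41 in Y12-3 and -0.42, -0.44 and -0.47 in A24-39.

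Ta.27746.1.S1_at ran the other way. It had 1.71, 2.38 and 0.58 on the well-watered Y12-3 arrays and 1.45, 2.20 and 0.30 on the well-watered A24-39 arrays, so the second array was highest and the third lowest in both. Its raised stressed value of 0.40 in Y12-3 was also on the second array, although the labels do not tie stressed and well-watered arrays of the same number to each other.

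**Figure D3:**
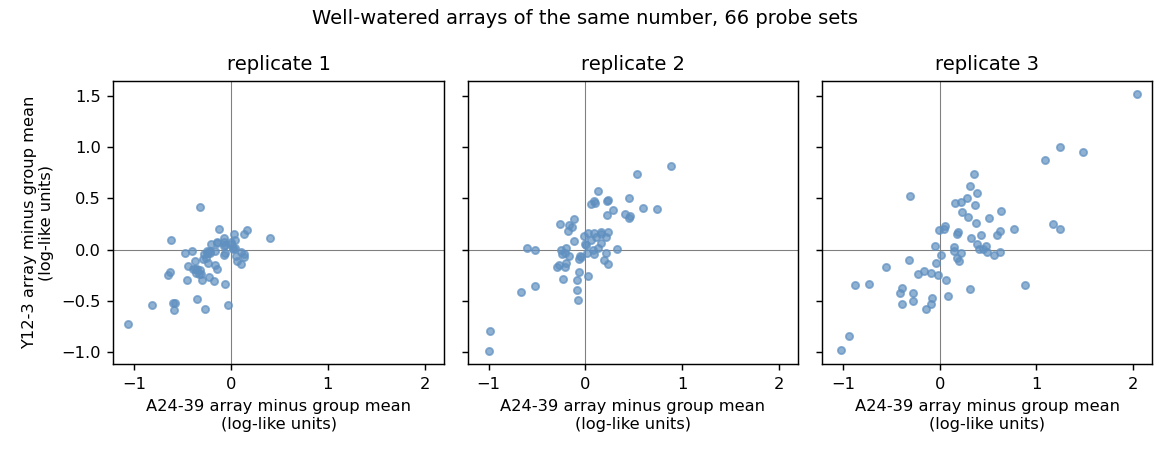
Deviation of each well-watered array from its group mean for the 66 probe sets, in log-like units, with Y12-3 on the vertical and A24-39 on the horizontal axis and 1 panel per replicate number. Points rise together in each panel (r = 0.59, 0.75 and 0.74), and the third replicate has the widest spread, with Ta.14904.1.S1_at at its upper right.

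The rule set a minimum for both well-watered means but no limit on their difference, which was tested. The minimum still left out probe sets that were low in 1 genotype. The test is therefore not free of the rule, and its counts hold for the chosen members only. Y12-3 had the higher well-watered mean in 48 of the 66 and A24-39 in 18, and the median difference (Y12-3 minus A24-39) was 0.24. Over the 6157 probe sets at or above the well-watered minimum, 46.1% were higher in Y12-3 and the median difference was -0.02. In a limma fit of all 12 arrays, 8 of the 66 passed an adjusted p under 0.05, 5 higher in Y12-3 and 3 lower. The test called 5.29% of all probe sets, 2.8% as higher and 2.49% as lower, and 6.76% of those at or above the well-watered minimum (2.63% higher, 4.13% lower). In 7 members every well-watered Y12-3 array lay above every A24-39 array and in 3 below, against 8.44% and 8.79% of all probe sets and 9.78% and 12.1% of those at or above the minimum. With the replicate number as a block within each watering, chosen after the data were seen because same-numbered arrays deviated together, limma called 22 of the 66, 17 higher and 5 lower, against 6.47% of all probe sets. Of the 8 calls, 7 remained with that block. These genotype counts depended on single arrays. Without the first well-watered A24-39 array limma called 3 of the 66 (2 higher, 1 lower) and 1915 of all 61115 probe sets. Without the third well-watered A24-39 array it called 17, all higher, and 2761 of all probe sets. Without the first well-watered Y12-3 array it called 5, all higher, and 2738 of all probe sets. Lacking the second well-watered A24-39 array, it called 5 (4 higher, 1 lower) and 3586 of all. In a fit of the 6 well-watered arrays alone it called 2, both higher, and 1473 of all probe sets. The number of members with a higher Y12-3 mean was 45 to 50 when single well-watered arrays were left out.

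Ta.4333.1.S1_at differed most between the well-watered genotypes. It had 3.06, 2.86 and 2.94 in well-watered Y12-3, against 1.93, 1.94 and 2.15 in well-watered A24-39, with no overlap. The difference was 0.94 ± 0.11 (SE; limma adjusted p = 0.000592). A second probe set of that cluster, Ta.4333.1.S1_s_at, missed the well-watered minimum in A24-39 and differed in the same direction, with 1.27, 1.12 and 1.35 in well-watered Y12-3, against 0.72, 0.60 and 0.62 in well-watered A24-39.

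By the same test 4 other members were higher in well-watered Y12-3: Ta.19188.1.S1_at, Ta.10658.1.S1_at, Ta.9939.1.S1_at and Ta.22854.1.S1_x_at. Ta.19188.1.S1_at had 3.49, 3.04 and 2.70 in Y12-3, against 1.90, 2.24 and 2.54 in A24-39, a difference of 0.85 ± 0.19 (SE; limma adjusted p = 0.0244). With the block within watering the limma adjusted p was 0.0785, and in the fit of the 6 well-watered arrays it was 0.165. It ran from 0.00909 to 0.0957 when 1 array was left out. The arrays did not overlap, but the first array was the highest in Y12-3 and the lowest in A24-39. Ta.10658.1.S1_at had 2.62, 2.55 and 3.13 in Y12-3, against 1.905, 2.004 and 2.30 in A24-39, a difference of 0.70 ± 0.14 (SE; limma adjusted p = 0.0154). Its limma adjusted p was 0.128 in the fit of 6 arrays and 0.0116 to 0.0726 when 1 array was left out. In cluster Ta.19188, Ta.19188.2.S1_x_at and Ta.19188.3.S1_a_at were also higher in Y12-3, by 0.55 (limma adjusted p = 0.00987) and 0.87 (limma adjusted p = 0.00857). Ta.9939.1.S1_at and Ta.22854.1.S1_x_at differed by 0.48 and 0.43, and the last of these was named after its value was seen, to complete the count. Of the 5 higher calls, the fit of 6 arrays kept only Ta.4333.1.S1_at and Ta.9939.1.S1_at (limma adjusted p = 0.00482 and 0.0446).

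Ta.13546.1.A1_at, Ta.16744.1.S1_at and Ta.21069.1.S1_x_at were lower in well-watered Y12-3. Ta.13546.1.A1_at had 1.62, 2.40 and 1.82 in Y12-3, against 2.57, 2.72 and 2.59 in A24-39, a difference of -0.68 ± 0.16 (SE; limma adjusted p = 0.0385). This call depended on the fit. The limma adjusted p was 0.0148 with the block within watering, 0.0519 with array weights and 0.173 in the fit of 6 arrays. It ran from 0.00108 to 0.132 when 1 array was left out. Ta.16744.1.S1_at had 0.97, 1.04 and 1.24 in Y12-3, against 1.79, 1.48 and 1.91 in A24-39, a difference of -0.65 ± 0.13 (SE; limma adjusted p = 0.0155). Ta.21069.1.S1_x_at had 1.69, 2.11 and 2.15 in Y12-3, against 2.33, 2.73 and 2.81 in A24-39, a difference of -0.64 ± 0.14 (SE; limma adjusted p = 0.0290). In all 3 the Y12-3 arrays lay below the A24-39 arrays without overlap. None of these 3 was called in the fit of 6 arrays. The same held without the first well-watered Y12-3 array and without the third well-watered A24-39 array. Other probe sets of these clusters did not all share the difference. In cluster Ta.21069, Ta.21069.1.S1_a_at (-0.005, limma adjusted p = 0.996), Ta.21069.2.S1_a_at (-0.11, limma adjusted p = 0.889) and Ta.21069.3.S1_x_at (-0.0001, limma adjusted p = 0.9998) had a well-watered signal and passed no threshold. In cluster Ta.16744, Ta.16744.1.S1_a_at differed by -0.51 (limma adjusted p = 0.0258). A difference in signal between genotypes is not always one in RNA, since a base difference under the probes also changes the signal.

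**Figure D4:**
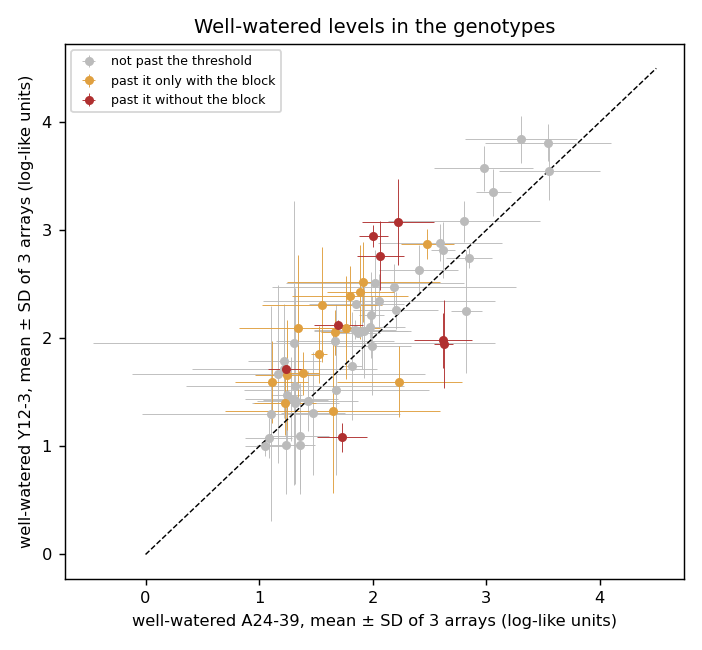
Well-watered mean of the 66 probe sets in Y12-3 (vertical) and A24-39 (horizontal), with bars for the SD of 3 arrays, in log-like units, and the dashed line at equality. The 8 members past the limma threshold without the block are red, those past it only with the block within watering are orange, and 48 of the 66 lie above the line.

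Among the 66, no genotype difference passed the test in stressed roots, but the rule had used these same stressed means. Y12-3 was the higher in 36 members and A24-39 in 30, the differences ran from -0.21 to 0.22, and limma called 0 of the 66, with 0 at an unadjusted p under 0.05 and 8.47% of all probe sets called. The rule held both stressed means under the stressed maximum, so both groups were at background there and small differences were largely built in. The share of all probe sets, which were not chosen in this way, is given for scale only. The test therefore cannot decide whether the genotypes differ under stress, and its count says nothing of the RNA. The interaction, the stress response of Y12-3 minus that of A24-39, was called by limma in 0 of the 66, with 9 at an unadjusted p under 0.05 and 0.0851% of all probe sets called. With the block within watering it was called in 3, against 0.25% of all probe sets. Without the third well-watered A24-39 array it was also called in 3, against 141 of all 61115 probe sets. With both stressed groups at background, the interaction mostly restates the well-watered difference, and the falls it compares are lower bounds. The falls of the genotypes lay within 0.5 units of each other in 52 of the 66, a description with no comparison set. Since the rule held both stressed means at background, this count also mostly restates the well-watered difference. It does not show that the genotypes responded alike.

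Other probe sets of the same clusters are given as a description. The rule was applied to them too, they lie on the same arrays, and 11 carry the ID number of a member, so they are no independent support for the fall of the 66. There were 59 of them, in 26 of the 55 clusters. 28 clusters have a single probe set on the array, and in 1 cluster, Ta.24547, both probe sets were members. Under stress in Y12-3, 43 of the 59 fell (limma adjusted p under 0.05) and 0 rose, where 8.1% of all probe sets fell and 11.1% rose. In A24-39 36 fell and 0 rose, where 5.36% of all probe sets fell and 5.35% rose. The fall passed in both genotypes in 35 of them. Of the 59, 19 had all 4 group means within the background level, where a size of change cannot be read, and 6 of these were among the 43 and 1 among the 36. Of the 40 with a signal in at least 1 group, 37 fell in Y12-3, 35 in A24-39 and 34 in both. The median difference over the 59 was -0.86 in Y12-3 and -0.77 in A24-39, against -0.01 and 0.02 over all probe sets.

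Most of the 59 missed the rule by a low well-watered mean. The well-watered minimum alone excluded 46, the stressed maximum alone 11, and both limits 2. Those above the stressed maximum included Ta.21069.2.S1_a_at, whose Y12-3 means were 0.32 under stress and 3.56 with water and whose A24-39 means were 0.35 and 3.68. Ta.23081.1.S1_x_at had Y12-3 means of 0.47 under stress and 3.005 with water and A24-39 means of 0.22 and 2.78. These 2 were chosen after their values were seen, as examples of a signal that fell and stayed above background. Of the 15 that passed in neither genotype, 13 were among those 19. The other 2 were Ta.5216.1.S1_a_at and Ta.5216.3.S1_x_at, whose well-watered arrays varied widely, as did those of Ta.5216.1.S1_x_at among the 66. Ta.5216.1.S1_a_at differed by -1.49 in Y12-3 and -1.31 in A24-39 and Ta.5216.3.S1_x_at by -0.86 and -0.71.

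**Figure D5:**
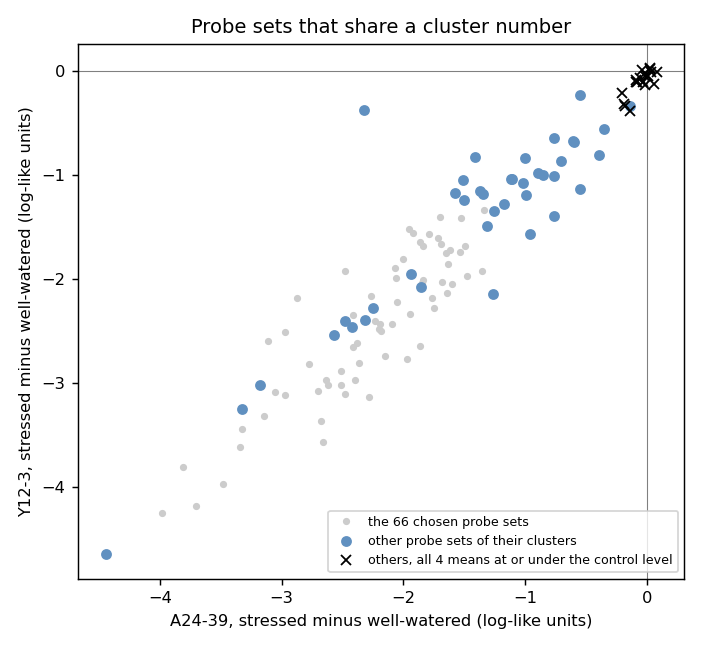
Difference between stressed and well-watered means in Y12-3 (vertical) and A24-39 (horizontal), in log-like units, for the 59 other probe sets of the clusters (blue points, or crosses where all 4 means were within the background level) and for the 66 chosen ones (grey, shown for scale). The crosses sit near 0, the blue points lie below 0 on both axes, and Ta.23066.2.S1_s_at stands apart at -0.37 in Y12-3 against -2.32 in A24-39.

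The suffixes and annotation of the 66 were set beside those of the 6157 and of all probe sets. Suffix _at, for probes that match 1 transcript, was found on 53.0% of the 66, 53.1% of the 6157 and 79.2% of all probe sets. Suffix _x_at, for probes that in part match other transcripts, was found on 23 of the 66 (34.8%), 24.5% of the 6157 and 11.1% of all. For those 23, including LOC778415 and 3 of the 4 Ta.9401 members, the signal cannot be assigned to a single gene with certainty. The prefix TaAffx was borne by 8 of the 66 (12.1%), 8.56% of the 6157 and 48.6% of all. Suffix _a_at was found on 7.58% of the 66, 14.4% of the 6157 and 5.43% of all, and _s_at on 4.55%, 8.06% and 4.28%. A single gene symbol was given to 3.03% of the 66, 6.58% of the 6157 and 2.08% of all. The shares of _at, _x_at and TaAffx lay nearer to the 6157, and those of _a_at, _s_at and a symbol nearer to all probe sets.

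Applied to 1 genotype, the same limits chose more probe sets. In Y12-3 alone 134 passed, of which 49.3% also passed in A24-39, and in A24-39 alone 108 passed, of which 61.1% also passed in Y12-3. Of those that passed in Y12-3 only, 49 missed the well-watered minimum in A24-39 and 24 the stressed maximum, some of them both. Of those that passed in A24-39 only, 16 missed the minimum in Y12-3 and 26 the maximum.

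The lists of dehydrins, aquaporins, cell wall, tubulin, peroxidase and catalase, transport and histone genes held 6 probe sets matched by symbol. Those of aquaporins, transport and histones matched 0. No listed probe set was among the 66, but this was fixed in advance. Of the 66, 64 have no symbol and the other 2 have placeholders, so the lists cannot show whether such genes are among them. Of the 6 matched probe sets, COR410, a cold-regulated dehydrin, rose in both genotypes. Of the tubulins, TUBA fell in Y12-3 on Ta.812.1.S1_x_at, from 4.31 to 3.87, but passed no threshold there in A24-39 (0.05, limma adjusted p = 0.865). On Ta.723.1.S1_at it fell in A24-39, from -0.10 to -0.39, values near or under the background level. The 3 probe sets of XTH, a cell wall enzyme, and CAT1, a catalase, passed in neither genotype. Those of CAT1 were at background in all 4 groups (means of -0.51 to -0.45), where a change cannot be read. As a check of the tissue, the 4 probe sets of the shoot markers FBP (fructose-bisphosphatase) and petC (a subunit of the photosynthetic cytochrome complex) had group means of -0.78 to -0.11, near or under the background level in every group. No marker defining roots had a symbol.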

How the data were processed

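Values came from the deposited table of 61290 probe sets and 12 arrays. The unit is a score: per the submitters' processing notes the authors used RMA, and no version, log base, centring or scaling is given in the sources used here. From the values, each array averages about 0. The score was used as deposited. After leaving out 175 control probe sets, limma 3.58.1 in R 4.3.3 (lmFit, eBayes) fitted 4 group means over all 12 arrays (8 residual degrees of freedom), with Benjamini-Hochberg adjustment over 61115 probe sets and a threshold of 0.05. The number of arrays limits the precision. limma was tested on simulated data in which the noise of each array was independent. Those data lack the shared deviation of same-numbered arrays, so they do not give the error rate for the measured arrays. The design had assumed a log scale, and the log-like score was treated as one.

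The members and lists were chosen with earlier results of these data known. Probe sets were named by rule: those with a symbol, the highest well-watered and lowest stressed levels, up to 4 tested differences each way, clusters with 3 or more members, and those at the limits. Arrays of the same number deviated together between genotypes over all probe sets (r = 0.197 to 0.278 in well-watered, 0.170 to 0.575 in stressed roots), which meets the condition for pairs within a watering. The planned fit, behind the calls and differences given for single probe sets, has no block, and the counts with the block within watering stand beside its counts. Between stressed and well-watered arrays of a genotype r was -0.104 to 0.126, and the number was not treated as a pair. Alternatives covered scaling by quantiles or by 27 hybridisation spike-in controls, array weights, a filter on dim probe sets, blocks, an intensity trend and left-out arrays.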

Additional observations from a re-analysis of the deposited data

Results flagged for a closer look

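Among the probe sets that share a cluster with the 66, 2 passed the limma test of the difference between the stress responses of the genotypes. Ta.23066.2.S1_s_at had an interaction (Y12-3 minus A24-39 response) of 1.95 ± 0.21 (SE; limma adjusted p = 0.00934). It had -0.43, -0.48 and -0.33 in well-watered Y12-3, against 1.44, 1.46 and 2.15 in well-watered A24-39, with stressed means of -0.78 in Y12-3 and -0.64 in A24-39. It was above background in well-watered A24-39 only, while the 2 members of the same cluster were above background in both well-watered groups, with Y12-3 minus A24-39 differences of 0.54 (Ta.23066.1.S1_s_at) and 0.12 (Ta.23066.1.S1_x_at). The fall of Ta.23066.2.S1_s_at in Y12-3 could not be measured, so the interaction has no exact size. Over the alternatives the interaction ran from 1.72 to 2.31, each past the threshold.

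For Ta.4333.1.S1_s_at the response of Y12-3 differed from that of A24-39 by -0.61 ± 0.09 (SE; limma adjusted p = 0.0418), but by -0.25 (adjusted p = 0.32) after rescaling by spike-in controls. Its stressed means were -0.32 in Y12-3 and -0.31 in A24-39, both at background, so the interaction follows its well-watered difference of 0.60. Over its other alternatives the adjusted p was 0.0119 to 0.134. Groups of 3 arrays are too small for a search for single outlying samples.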

How the results depend on the processing

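The count of 66 follows the limits: it was 151 with a well-watered minimum of 0.5, 41 with 1.5, 105 with a stressed maximum of 0, 39 with -0.3, and 32 where every single array had to pass. It was 65 after quantile normalization and 71 with medians, and 63 to 72 when 1 array was left out. Rescaling by spike-in controls left 18, since it raised the stressed Y12-3 arrays by 0.293 units against a fixed limit. That rescaling moved the median of all probe sets by 0.32 for stress in Y12-3, 0.45 for the stressed genotype difference and 0.36 for the interaction. Relative to that median, 45 members were higher in stressed Y12-3 with and without it.

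The 8 well-watered genotype calls (3231 of all 61115 probe sets) became 22 with rescaling (1457 of all). They became 22 with the replicate block within watering (3954 of all), which was added after the data were seen. In the fit of 6 arrays they became 2 (1473 of all). They were 3 (1915 of all) to 17 (2761 of all) when 1 array was left out. The low end lacked A24-39 well-watered replicate 1 and the high end lacked replicate 3. Only 2 (1430 of all) were called without the first well-watered array of both genotypes (also added). With the replicate block across watering limma called 9 (3377 of all). The 0 stressed genotype calls (5179 of all) became 63 with rescaling, which called 55007 of all 61115 probe sets. They became 1 with array weights (12270 of all), and stayed 0 in the fits that left out 1 array. The 0 interaction calls (52 of all) became 4 with rescaling (all higher, 813 of all) and 3 with array weights (868 of all). They were 3 with the block within watering (153 of all). When 1 array was left out they were 0 to 3, with 141 of all called where they were 3. Apart from the effect of rescaling, the cause of these changes was not tested. The counts of other probe sets of the clusters that fell stayed at 33 to 49 in Y12-3 and 34 to 40 in A24-39 over all alternatives. No alternative run reversed the direction of a named tested difference.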
